A study of Mus musculus with 6 samples.

Results

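Complex I of the respiratory chain was followed in mouse liver through the messenger RNAs of its nuclear-encoded subunits. A gene was counted as a subunit gene when its RefSeq symbol was Ndufab1 or consisted of Nduf, 1 of the letters a, b, c, s or v, and a number. The rule found 38 genes in the RefSeq table, and 37 of them had at least 1 probe on the array, 43 probes in all. Ndufb1 was the gene with no matched probe. The 37 genes were part of 22810 genes tested. The rule used names alone and no measured value.

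Complex I, the NADH:ubiquinone oxidoreductase, is the entry point of electrons from NADH into the respiratory chain of the inner mitochondrial membrane. Its matrix arm oxidises NADH and passes the electrons along a flavin and a row of iron-sulfur clusters to ubiquinone, and its membrane arm uses the energy released to pump protons. The core subunits of the matrix arm, which hold the cofactors, are encoded in the nucleus, those of the membrane arm in mitochondrial DNA, and a large group of nuclear-encoded accessory subunits surrounds both. Liver cells are rich in mitochondria, and the nuclear genes of the complex are known targets of the transcription factors NRF1, GABP and YY1 and of the ERR receptors with their PGC-1 coactivators.

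The samples were livers of male mice aged 6 weeks that had received no treatment, and the total RNA of each was hybridised to 1 of 6 one-colour (Cy3) oligonucleotide arrays. The groups were 3 WT livers and 3 Sec15 KO livers. Sec15 belongs to the exocyst, which docks secretory vesicles at the cell surface, and mice carry a pair of genes for it, Exoc6 and Exoc6b. Which of the pair was deleted, in which cells, by which allele and on which strain background is not stated in the labels. Separate animals for the samples of a group are not stated either, and the p-values therefore rest on a spread between samples that may be technical. The question asked of the subunit genes was whether their RNA differed between Sec15 KO and WT liver.

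Levels are given as log2 of the processed signal minus the 75th percentile of the same array, so that 0 is the brightness of the probe at that percentile. Differences are KO minus WT on that log2 scale, with the standard error (SE) of the limma fit over 3 arrays a group. A gene was called where limma's p, adjusted over all 22810 genes by the Benjamini-Hochberg method, was under 0.05. Between 64.8% and 65.4% of probes were well above background on the KO arrays and between 67.3% and 70.3% on the WT arrays. The Exoc6b probe read 0.31, 0.78 and 0.55 on the WT arrays and 0.14, -0.03 and -0.06 on the KO arrays, a difference of -0.53, and the Exoc6 probe was well above background on 1 of 6 arrays. It is not known whether either probe lies in the deleted part, so neither checks the labels. Each of the 10 hepatocyte markers looked for, among them Alb, Apoa1 and Cps1, stood well above background on every array. The arrays carried 2 scan times in their headers: the 3 WT arrays and KO replicate 2 shared scan 1, and KO replicates 1 and 3 shared scan 2.

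Stretches of the subunit promoters are shown because some hold short words of letters associated with NRF1 or YY1, factors named above. Binding was not measured. Several of the factors named above are described with their own values further on. RefSeq promoter windows (build GRCm38.p6, 250 bases before to 50 after each annotated start) were found for 33 of the 37 genes, 35 windows in all. They were searched on both strands for the NRF1 word, a near-palindrome of 10 letters searched with any base allowed at letter 5. It stood in 8 of the 35 windows (22.9%), those of Ndufa11, Ndufa5, Ndufa6, Ndufa8, Ndufb4, Ndufs5 and Ndufs6, against 4.60% of all 32851 windows of that length. The 2 windows of Ndufa5 overlap and hold the same match. Capitals mark the NRF1 word, whose free letter is number 5 or, where the match is on the opposite strand, number 6, and each sequence runs 5′ to 3′ along the gene's own strand.
Ndufa5, chr6:24527682-24527741, minus strand: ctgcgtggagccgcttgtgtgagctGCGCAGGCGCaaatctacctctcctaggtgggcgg
Ndufa8, chr2:36049339-36049393, minus strand: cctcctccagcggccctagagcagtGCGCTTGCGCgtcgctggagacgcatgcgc
Ndufs5, chr4:123718250-123718309, minus strand: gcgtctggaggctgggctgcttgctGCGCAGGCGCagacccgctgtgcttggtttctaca
Ndufa11, chr17:56717677-56717736, plus strand: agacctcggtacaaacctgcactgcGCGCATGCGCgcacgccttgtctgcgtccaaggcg
Ndufs6, chr13:73328483-73328523, minus strand: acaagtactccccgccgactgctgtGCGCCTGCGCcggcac

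The YY1 word AAGATGGCG stood in 5 of the 35 windows (14.3%), against 1.40% of all windows. All of its matches lay just after the annotated start, between bases 23 and 44. Capitals mark the YY1 word below, shown for the 5 genes that hold it.
Ndufa9, chr6:126849097-126849126, minus strand: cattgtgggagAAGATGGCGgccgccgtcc
Ndufc1, chr3:51408915-51408944, minus strand: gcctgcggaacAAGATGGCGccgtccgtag
Ndufs4, chr13:114388045-114388070, minus strand: ttgcctacaggAAGATGGCGgcggtc
Ndufs6, chr13:73328433-73328460, minus strand: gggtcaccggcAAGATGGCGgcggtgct
Ndufs7, chr10:80249462-80249491, plus strand: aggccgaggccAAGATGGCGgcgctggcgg

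The GABP word CCGGAAG stood in 4 windows (11.4%), those of Ndufb6, Ndufb7, Ndufs3 and Ndufs8, against 8.86% of all windows, and the ERR word TCAAGGTCA in none of the 35 against 0.423%. The windows of the subunit genes had a median of 59.0% G and C, and all windows 52.7%. A match of letters is a description and not a binding site.

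The subunit RNAs were modestly more abundant on the KO arrays. All 37 subunit genes passed the filter on dim probes, and each stood well above background on every array. Of these, 21 rose (56.8%), by 1.25-fold to 1.67-fold, none fell and 16 were not called. Over all genes tested, 17.4% were higher and 12.2% lower in KO by the same test. Unadjusted, 29 subunit genes had a limma p under 0.05, against 45.5% of all genes. The median difference of the 37 genes was 0.43, with a range from 0.02 to 0.74, against a median of 0.06 over all genes. The 3 KO values lay above the 3 WT values for 33 genes, where 30.6% of all genes were separated in that way. Ndufa7, Ndufs7 and Ndufa3 were among the genes whose groups overlapped. Of the 10 hepatocyte markers 3 rose (Fgb, Tat and Cps1, 30%) and none fell, with a median difference of 0.30. All 10 lay in the brightest decile (defined below), where 36.3% of genes rose. After cyclic loess 1 of the markers was higher and 3 were lower, with a median of 0.00. Of all genes 10.8% were higher and 12.5% lower in that setting. The part of hepatocytes in the difference of the subunit genes was not tested. In bulk liver, a change in the share of mitochondria-rich cells and a change in RNA per cell cannot be told apart.

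**Figure D1:**
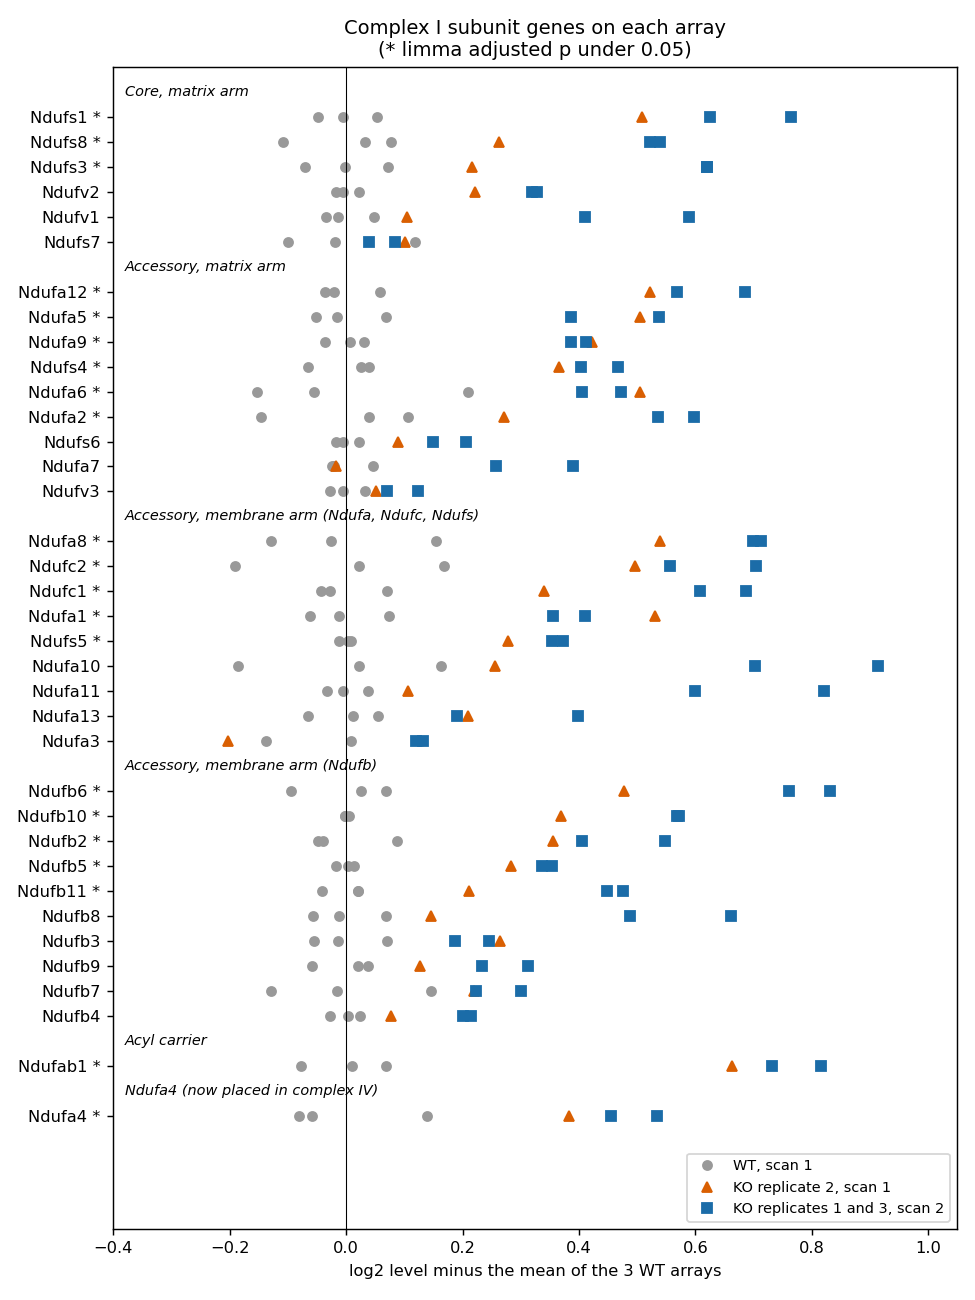
Level of 36 of the subunit genes on each array, as log2 difference from the mean of the 3 WT arrays (x axis), grouped by place in the complex, with 1 point per array. Most KO points lie to the right of the WT points, and the triangle of KO replicate 2, scanned with the WT arrays, is the leftmost KO point for most of the genes.

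Brightness and the KO to WT difference moved together across the whole array, and most subunit genes were bright. When the 22810 genes were divided into 10 equal groups by mean level (deciles), the median difference was -0.29 in the dimmest decile and 0.29 in the brightest, and 31 of the 37 subunit genes lay in the brightest. Of those 31 genes 18 rose (58.1%), against 36.3% of the 2281 genes of that decile, and their median difference was 0.41. Of the 31, 28 had KO values that all lay above the WT values, against 60.6% of the decile. The difference was above 0 for all 37 subunit genes, but it was also above 0 for 81% of the brightest decile and 54.6% of all genes. Set against the median of its own decile, the difference was larger for 27 of the 37 genes. Among the subunit genes themselves the 6 outside the brightest decile had differences from 0.44 to 0.74, and the rank correlation between level and difference over the 37 genes was -0.56, given as a description since all points share the same 6 arrays.

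**Figure D2:**
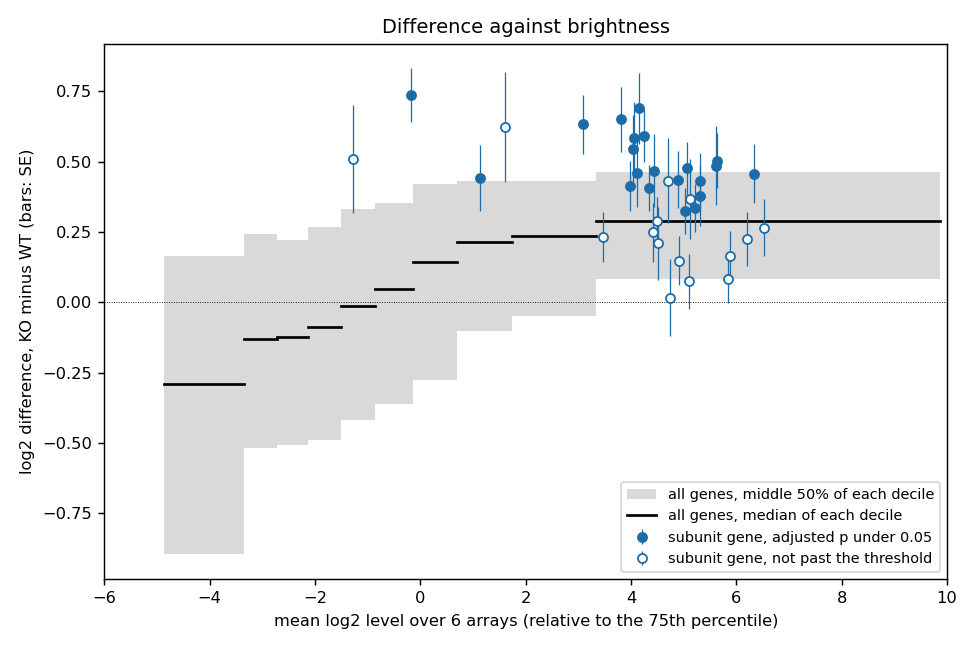
KO minus WT log2 difference (y axis, bars 1 SE) of 36 of the subunit genes against mean log2 level over the 6 arrays (x axis), over the median and middle 50% of all genes in each brightness decile. The median of all genes climbs from -0.29 to 0.29 with brightness, and the 31 subunit genes at the right end scatter around and mostly above the black line of the brightest decile.

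The number of called subunit genes fell to the level of all genes once brightness-dependent differences between arrays were removed. Cyclic loess, which evens out array differences that follow brightness, left 5 genes higher in KO (13.5%), against 10.8% of all genes. Those 5 were Ndufab1, Ndufs1, Ndufa12, Ndufa8 and Ndufb6. In the brightest decile 3 of 31 subunit genes were called (9.68%), against 10% of the decile. The median difference of the 37 genes became 0.16 and that of all genes -0.02, and 27 of the 37 differences stayed above 0. Quantile normalization, which gives every array the same distribution of levels, also left 5 (13.5%), against 13.7% of all genes, and normexp background correction with quantile normalization left 7 (18.9%), against 15% of all genes. Array weights, which put most weight on WT replicate 3 and KO replicate 3, gave 35 of 37, against 40.9% of all genes.

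The scan time moved with the result. Scan 2 held no WT array, so that with scan as a block the difference of a gene rested on KO replicate 2 against the 3 WT arrays. In that fit 1 subunit gene rose, Ndufab1 (2.70%), against 5.08% of all genes, and the median difference was 0.26. On the arrays of scan 1 alone limma called 0 genes (0%), while 12 subunit genes and 6760 of all genes had an unadjusted p under 0.05. KO replicate 2 lay above all 3 WT arrays for 33 of the 37 genes, against 66.4% of the brightest decile. Single arrays weighed as much on the number of calls. The median difference of the 37 genes then ran from 0.39 without KO replicate 1 to 0.46 without KO replicate 2. Leaving out WT replicate 2 gave 3 subunit genes higher in KO (5.2% of all genes), KO replicate 1 gave 4 (6.51%) and KO replicate 3 gave 1 (2.09%). Leaving out WT replicate 3 gave none (1.49% of all genes), while 21 subunit genes and 7220 of all genes had an unadjusted limma p under 0.05. The number of all genes with such a p was 7243 without KO replicate 3, 8092 without WT replicate 2 and 8345 without KO replicate 1. With scan as a block it was 7942, and 17 of the 37 subunit genes had such a p. All these unadjusted counts take genes of either direction. Those given further on for classes and lists in these settings are to be read beside the numbers for all genes, and were not tested against them. Leaving out WT replicate 1 gave 15 subunit genes (15.4% of all genes) and KO replicate 2 gave 28 (25.1%). Without KO replicate 2 every WT array was of scan 1 and every KO array of scan 2. Genotype and scan cannot be told apart in that fit.

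**Figure D3:**
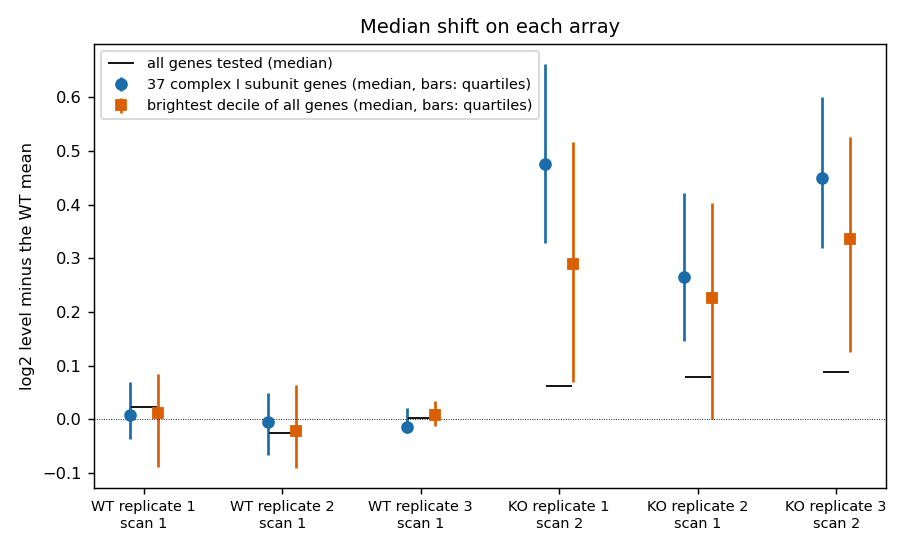
Median log2 difference from the WT mean on each array (y axis) for the 37 subunit genes, the brightest decile and all genes tested, with bars for the quartiles. The subunit medians are 0.48 and 0.45 on KO replicates 1 and 3 and 0.26 on KO replicate 2, beside 0.29, 0.34 and 0.23 for the brightest decile in the order KO replicate 1, 3 and 2.

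Array by array, the median subunit gene stood 0.48 above the WT mean on KO replicate 1, 0.26 on KO replicate 2 and 0.45 on KO replicate 3. The medians of the 3 WT arrays lay between -0.01 and 0.01. KO replicate 2 was the lowest of the KO arrays for 30 of the 37 genes, against 60.4% of the genes of the brightest decile. Within groups the subunit genes were tight: the median SD was 0.06 over the WT arrays and 0.10 over the KO arrays (n = 3 each), against 0.09 and 0.11 in the brightest decile.

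**Figure D4:**
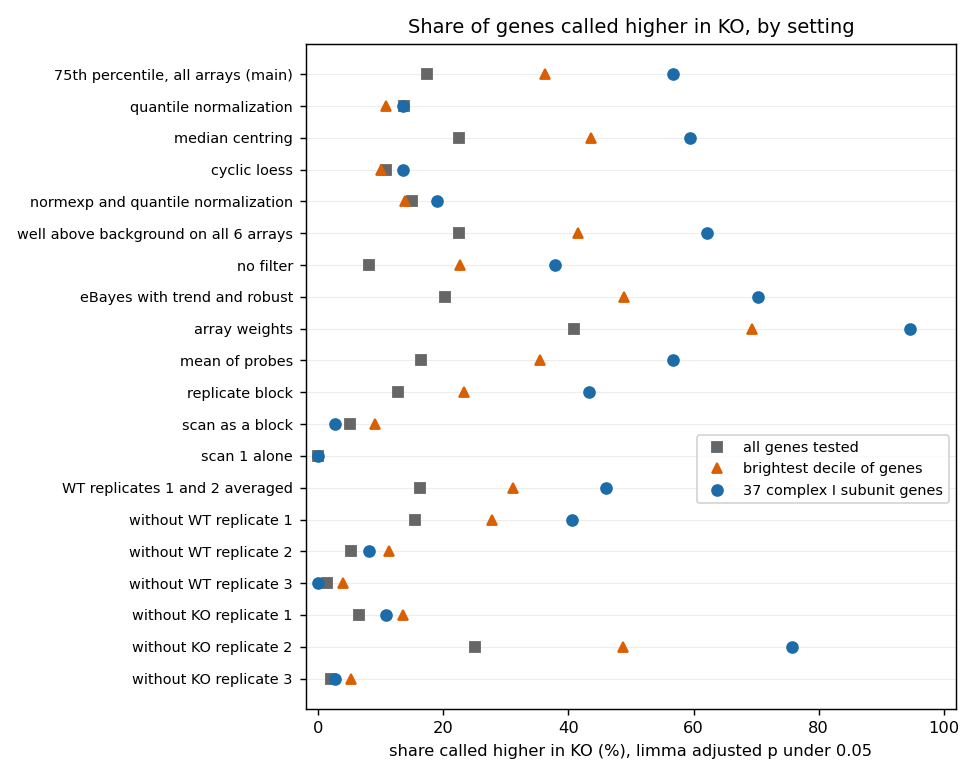
Share of genes called higher in KO (x axis, percent) under the reported setting, in the top line, and 19 alternatives, for all genes, the brightest decile and the 37 subunit genes. The subunit share is 56.8% in the top line, 13.5% after cyclic loess and 2.70% with scan as a block, and it runs from 0 to 75.7% when single arrays are left out. The highest of these is without KO replicate 2, where genotype and scan coincide.

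Of the 7 core subunits, which carry the flavin and the iron-sulfur clusters, 3 rose (42.9%) and the median difference was 0.44. Beside this count and those of the classes below stand the shares higher in KO, 17.4% of all genes and 36.3% of the brightest decile. Ndufs1, the largest iron-sulfur subunit of the matrix arm, read 2.76, 2.72 and 2.82 on the WT arrays and 3.53, 3.27 and 3.39 on the KO arrays. All KO values lay above all WT values, with KO replicate 2 the lowest, and the difference was 0.63 (SE 0.10, 1.55-fold, adjusted p = 0.0127). The scan block gave 0.51 (adjusted p = 0.0568) and cyclic loess 0.37 (adjusted p = 0.0348). Ndufs8, which holds a pair of iron-sulfur clusters on the way to ubiquinone, read 0.98, 0.80 and 0.94 in WT and 1.44, 1.17 and 1.43 in KO. The groups did not overlap and the difference was 0.44 (SE 0.12, 1.36-fold, adjusted p = 0.0391). Ndufs3, a core subunit of the ubiquinone-reducing part, read 5.30, 5.45 and 5.37 in WT and 5.99, 5.59 and 5.99 in KO. Its KO replicate 2 stood well below the other KO arrays, and the difference was 0.49 (SE 0.14, 1.40-fold, adjusted p = 0.0475). After cyclic loess Ndufs8 and Ndufs3 were not called, at 0.27 and 0.20, and the median of the class was 0.20.

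Ndufs7, which holds the last cluster before ubiquinone, read 4.96, 5.18 and 5.05 in WT and 5.10, 5.17 and 5.15 in KO. The groups overlapped and the difference was 0.07 (SE 0.10, adjusted p = 0.571). The NADH-oxidising subunits Ndufv1, which binds the flavin, and Ndufv2 were not called, at 0.37 (adjusted p = 0.0976) and 0.29 (adjusted p = 0.0512). Ndufs1 was the core gene still called when WT replicate 2 or KO replicate 1 was left out. No core gene was called without WT replicate 3 (3 with an unadjusted limma p under 0.05) or without KO replicate 3 (2). In the fit with the scan block no core gene was called, and 1 had an unadjusted p under 0.05.

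Of the 9 accessory subunits of the matrix arm 6 rose, with a median difference of 0.41. Ndufa12, which sits at the matrix arm and takes the place of an assembly factor late in assembly, read 3.91, 4.00 and 3.92 in WT and 4.51, 4.47 and 4.63 in KO. The 3 KO arrays were close together, KO replicate 2 included, and the difference was 0.59 (SE 0.09, 1.51-fold, adjusted p = 0.0116). The scan block left 0.52 (adjusted p = 0.0522) and cyclic loess 0.32 (adjusted p = 0.0452). Ndufa5, whose promoter stretch with an NRF1 word is printed above, read 4.77, 4.89 and 4.81 in WT and 5.21, 5.33 and 5.36 in KO. The difference was 0.48 (SE 0.09, 1.39-fold, adjusted p = 0.0184), with KO replicate 2 between the other KO arrays. A dimmer probe of Ndufa5 read 1.91, 1.83 and 1.85 in WT and 3.02, 3.19 and 3.05 in KO, a larger difference of 1.22 (SE 0.10). For the brighter probe cyclic loess gave 0.20 (adjusted p = 0.181). Ndufa9, which holds a bound NADPH and lies beside the ubiquinone site, read 4.14, 4.16 and 4.10 in WT and 4.54, 4.55 and 4.52 in KO. Its groups were narrow and apart by 0.41 (SE 0.08, 1.33-fold, adjusted p = 0.0200), and the scan block left the difference at 0.42 (adjusted p = 0.0600). After cyclic loess it was 0.13 (adjusted p = 0.306), and the median of the class was 0.14.

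Ndufv3, an accessory subunit beside Ndufv1 and Ndufv2, read 5.84, 5.80 and 5.78 in WT and 5.87, 5.86 and 5.93 in KO. The KO values lay just above the WT values, and the difference was 0.08 (SE 0.08, adjusted p = 0.475); a dimmer probe of the gene gave 0.00. The other 3 called genes of the class were Ndufs4, an accessory subunit lost in a form of Leigh syndrome, at 0.41, Ndufa6 at 0.46 and Ndufa2 at 0.47. Ndufs6, a zinc-binding subunit, and Ndufa7 were not called, at 0.15 and 0.21. The scan block left no gene of the class called, and 5 had an unadjusted limma p under 0.05. Ndufa12 alone was called without WT replicate 2, Ndufa12 and Ndufa5 without KO replicate 1, and no gene of the class without WT replicate 3 or without KO replicate 3, each with 6 at an unadjusted p under 0.05.

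Of the 9 accessory membrane-arm subunits named Ndufa, Ndufc or Ndufs 5 rose, and the median difference was 0.51. Ndufa8, a subunit with paired cysteines on the intermembrane-space face, read 3.65, 3.36 and 3.47 in WT and 4.19, 4.03 and 4.21 in KO. The KO arrays lay above every WT array, and the difference was 0.65 (SE 0.11, 1.57-fold, adjusted p = 0.0146). It was 0.54 with scan as a block (adjusted p = 0.0719) and 0.38 after cyclic loess (adjusted p = 0.0408). Ndufc2, a small subunit with membrane-spanning helices, read 3.94, 3.58 and 3.79 in WT and 4.47, 4.26 and 4.33 in KO. The spread of the WT arrays was as wide as the gap between the groups, and the difference was 0.59 (SE 0.13, 1.50-fold, adjusted p = 0.0237). Ndufc1, whose start region holds a YY1 word, read 3.84, 3.73 and 3.75 in WT and 4.46, 4.11 and 4.38 in KO. KO replicate 2 was again the lowest KO array, and the difference was 0.54 (SE 0.12, 1.46-fold, adjusted p = 0.0246). After cyclic loess Ndufc2 and Ndufc1 were not called, at 0.31 and 0.27, and the median of the class was 0.27.

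Ndufa3, a small membrane subunit, differed least of all 37 genes. It read 4.59, 4.86 and 4.74 in WT and 4.86, 4.53 and 4.85 in KO, so that KO replicate 2 was the lowest of all 6 arrays. The difference was 0.02 (SE 0.14, adjusted p = 0.935), and it turned negative under several of the alternatives, to -0.26 after cyclic loess and -0.20 with scan as a block. The other called genes were Ndufa1, an X-linked subunit, at 0.43 and Ndufs5 at 0.33. Ndufa10, Ndufa11 and Ndufa13, the last also known as GRIM-19, were not called, at 0.62 (adjusted p = 0.0587), 0.51 (adjusted p = 0.0910) and 0.27 (adjusted p = 0.0947). No gene of the class was called with scan as a block, nor without WT replicate 2, WT replicate 3, KO replicate 1 or KO replicate 3, where 5 or 6 of the 9 had an unadjusted limma p under 0.05.

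The Ndufb genes encode accessory subunits of the distal part of the membrane arm, and 5 of the 10 measured rose, with a median difference of 0.35. Ndufb6 read 3.88, 3.72 and 3.84 in WT and 4.64, 4.29 and 4.57 in KO. All KO values lay above the WT values, and the difference was 0.69 (SE 0.13, 1.61-fold, adjusted p = 0.0158). It was 0.48 with scan as a block (adjusted p = 0.0638) and 0.42 after cyclic loess (adjusted p = 0.0363), and the second Ndufb6 probe gave 0.50. Ndufb10, another intermembrane-space subunit with paired cysteines, read 5.38, 5.39 and 5.38 in WT and 5.96, 5.76 and 5.96 in KO. The WT arrays were within 0.01 of each other, and the difference was 0.50 (SE 0.10, 1.42-fold, adjusted p = 0.0179). Ndufb2 read 4.76, 4.63 and 4.64 in WT and 5.22, 5.03 and 5.08 in KO. Its groups were separate, with a difference of 0.44 (SE 0.10, 1.35-fold, adjusted p = 0.0264). After cyclic loess Ndufb10 and Ndufb2 were not called, at 0.22 and 0.16, and the median of the class was 0.07.

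Ndufb4, whose promoter window holds an NRF1 word, read 5.76, 5.81 and 5.79 in WT and 6.00, 5.86 and 5.99 in KO. Every KO array was above every WT array, but the difference was 0.16 (SE 0.09, adjusted p = 0.200), and its second probe gave 0.11. The other called genes were Ndufb5 at 0.32 and Ndufb11, an X-linked subunit, at 0.38. A dimmer probe of Ndufb5 gave 0.84 (SE 0.22), and a second Ndufb11 probe did not pass the filter, being well above background on 1 WT array and no KO array. The genes not called were Ndufb8 at 0.43, Ndufb7 at 0.25, Ndufb3 at 0.23 and Ndufb9 at 0.22. No Ndufb gene was called with scan as a block, nor without WT replicate 2, WT replicate 3, KO replicate 1 or KO replicate 3, where 4 to 7 of the 10 had an unadjusted limma p under 0.05.

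Ndufab1, the mitochondrial acyl carrier protein, had the largest difference of the 37 genes. The protein sits in complex I and also carries the growing chain in mitochondrial fatty acid synthesis and takes part in iron-sulfur cluster assembly. Its RNA read -0.48, -0.63 and -0.54 on the WT arrays and 0.26, 0.11 and 0.18 on the KO arrays. The KO arrays were all above 0 and the WT arrays all below it, and the difference was 0.74 (SE 0.10, 1.67-fold, adjusted p = 0.00811). With scan as a block it was 0.66 (adjusted p = 0.0378), and after cyclic loess 0.64 (adjusted p = 0.00900). Ndufab1 was called in 17 of 19 alternatives, more than any other subunit gene, and lost the call without WT replicate 3 (adjusted p = 0.0568) and on the arrays of scan 1 alone (adjusted p = 0.0938).

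Ndufa4 keeps its complex I name, but its protein is now placed in cytochrome c oxidase, complex IV. It read 6.25, 6.02 and 6.05 in WT and 6.64, 6.49 and 6.56 in KO. Its groups did not overlap, and the difference was 0.46 (SE 0.11, 1.37-fold, adjusted p = 0.0266). The call was lost with scan as a block, after cyclic loess and without WT replicate 2, WT replicate 3, KO replicate 1 or KO replicate 3. Leaving Ndufa4 out, 20 of 36 genes rose. Its paralog Ndufa4l2, which the naming rule does not take, had a difference of -0.01.

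Genes that build complex I without staying in it formed a list of 19, of which 18 were measured (Coa1 had no matched probe). Of these 7 rose (38.9%) and none fell, against 17.4% of all genes higher and 12.2% lower. None of the 18 lay in the brightest decile. Set against the median of its own decile, the difference was larger for 11 of the 18, by a median of 0.03 over the 18. The median difference itself was 0.23. It was 0.03 after cyclic loess and 0.04 with scan as a block. The largest difference was that of Tmem70, a factor of ATP synthase and complex I assembly, which read -0.05, -0.44 and -0.23 in WT and 1.00, 0.35 and 0.86 in KO. The KO arrays were all above the WT arrays, with KO replicate 2 the lowest, and the difference was 0.98 (SE 0.20, adjusted p = 0.0205). Tmem126b, part of the membrane-arm assembly intermediate, read -1.24, -1.70 and -1.49 in WT and -0.48, -0.67 and -0.52 in KO. The groups were well apart, at 0.92 (SE 0.14, adjusted p = 0.0113). Nubpl, which delivers iron-sulfur clusters to the complex, read -1.33, -1.26 and -1.27 in WT and -0.10, -0.72 and -0.33 in KO. The KO arrays spread widely, the difference was 0.91 (SE 0.17, adjusted p = 0.0168), and a second Nubpl probe gave 1.03.

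The other factors that rose were Tmem186 at 0.55, Ndufaf4 at 0.48 (0.37 and not called by a second probe), Ndufaf8 at 0.48 and Foxred1 at 0.36. The largest differences not called were Dmac1 at 0.37 (adjusted p = 0.114) and Ndufaf7, a methyltransferase, at -0.28 (adjusted p = 0.133). After cyclic loess 5 of the 18 were called (Tmem126b, Nubpl, Tmem70, Tmem186 and Ndufaf8), against 10.8% of all genes. With scan as a block none was, while 7 of the 18 had an unadjusted limma p under 0.05. Among those 7 was Ndufaf7, lower in KO at -0.48 in that fit, and Foxred1 was not among them. Without WT replicate 2 Tmem126b alone was called, without KO replicate 1 3 factors, and without WT replicate 3 or KO replicate 3 none, with 5 and 7 of the 18 at an unadjusted p under 0.05. No probe matched the mitochondrially encoded subunits by name, so they were not analysed here.

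Of 9 listed regulators of respiratory genes 8 were measured and 5 rose (62.5%), against 17.4% of all genes. None of the 8 lay in the brightest decile. Set against the median of its own decile, the difference was larger for all 8, by a median of 0.43. After cyclic loess 4 of the 8 were called, against 10.8% of all genes. Ppargc1a, the PGC-1alpha coactivator, read 0.70, 0.15 and 0.39 in WT and 1.94, 1.94 and 1.97 in KO. The KO arrays were almost equal to each other across both scans, and the difference was 1.54 (SE 0.15, 2.90-fold, adjusted p = 0.00623). With scan as a block it was 1.53 (adjusted p = 0.0303), after cyclic loess 1.36 (adjusted p = 0.00568), and a dimmer second probe gave 1.27 (SE 0.30). It was called whichever of the 6 arrays was left out. Ppargc1b, the related coactivator PGC-1beta, read -0.56, -1.07 and -0.83 in WT and -0.22, 0.25 and 0.04 in KO. Here KO replicate 2 was the highest array, and the difference was 0.84 (SE 0.18, adjusted p = 0.0229).

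Yy1 read 0.70, 0.59 and 0.60 in WT and 1.08, 1.12 and 1.17 in KO. Its groups were narrow and separate, at 0.49 (SE 0.09, adjusted p = 0.0150). Tfam, which packages mitochondrial DNA, rose by 0.74 (SE 0.17, adjusted p = 0.0264), and 2 further probes of the gene gave 0.84 and 0.30, the latter not called. Gabpa, the DNA-binding subunit of GABP, rose by 0.62 (SE 0.18, adjusted p = 0.0489), with a second probe at 0.35 that was not called. After cyclic loess Gabpa was not called, at 0.49 (adjusted p = 0.0722). The largest differences not called were Esrra at 0.36 (adjusted p = 0.0833) and Pprc1 at 0.30 (adjusted p = 0.165), and no Nrf1 probe passed the filter. Ppargc1a was the regulator still called with scan as a block and when WT replicate 2, WT replicate 3 or KO replicate 3 was left out. Leaving out KO replicate 1 kept Ppargc1a, Ppargc1b and Yy1 called.

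Genes that rose were found with and without the promoter words. Of the 7 genes with an NRF1 word 4 rose (Ndufa5, Ndufa6, Ndufa8 and Ndufs5), and of the 26 genes with a window and no such word 15 rose. Of the 5 genes with a YY1 word 3 rose (Ndufa9, Ndufc1 and Ndufs4), and of the 28 without it 16. Ndufs6, which holds both words, differed by 0.15 and was not called. No test of these counts was made.

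The subunits of complexes II to V stood close to those of complex I. Of 40 measured genes 20 rose (50%) and none fell, against 17.4% of all genes higher, and the median difference was 0.40. Of the 40, 36 lay in the brightest decile, where 36.3% of genes rose. By complex, 1 of 4 rose in complex II, 5 of 9 in complex III, 6 of 12 in complex IV and 8 of 15 in complex V. Cyclic loess left 2 of the 40 called, against 10.8% of all genes and 10% of the brightest decile, with a median of 0.13. The scan block left 1, against 5.08% of all genes and 9.07% of that decile, with a median of 0.28. The number called was 1 when WT replicate 3 (1.49% of all genes) or KO replicate 3 (2.09%) was left out. It was 3 without WT replicate 2 (5.2%), 4 without KO replicate 1 (6.51%), 14 without WT replicate 1 (15.4%) and 29 without KO replicate 2 (25.1%). A test of complex I against the other complexes was not made.

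Markers of other cell types also differed between the groups. Of 9 measured red cell markers 5 rose (Hba-a1, Hba-a2, Hbb-bs, Hbb-bt and Slc4a1), against 17.4% of all genes. The other 4 were not called: Epb42 at 0.48, Klf1 at 0.34, Epor at 0.31 and Alas2 at 0.02 (-0.45 with scan as a block). The summed level of the 9, in multiples of the array's 75th percentile, was between 83.4 and 128.5 on the WT arrays. On the KO arrays it was between 344 and 442. The sum weighs the globins Hba-a2 and Hbb-bt most. The number called was also 5 with scan as a block, after cyclic loess and with any 1 array left out. Of 8 Kupffer cell markers 3 rose (Marco, Cd5l and Clec4f), against 17.4% of all genes. The other 5 were not called: Vsig4 at 0.46, Adgre1 at 0.40, Timd4 at 0.29, C1qa at 0.04 and C1qb at -0.15. The summed level of the 8 was 21.3 to 22.2 in WT and 31.3 to 40.7 in KO, and it weighs Cd5l most. With scan as a block 0 were called, and 3 had an unadjusted limma p under 0.05. These were Marco, Cd5l and C1qa, the last lower in KO at -0.46 in that fit. The number called was also 0 when WT replicate 3 or KO replicate 3 was left out (4 each at an unadjusted p under 0.05, in either direction). It was 1 without KO replicate 1, 5 without KO replicate 2, and 2 after cyclic loess or without either of the other WT arrays. Of 7 measured pancreatic acinar markers 6 fell, against 12.2% of all genes, among them Try4 at -3.80 and Try5 at -3.73, and Amy2a5 rose, at 0.49. Their summed level was 12.2 to 16.1 in WT and 11.8 to 12.4 in KO. That sum weighs Amy2a5 most, the brightest of the 7 on every array, with a mean level of 2.75 in WT and 3.23 in KO. It therefore says little about the 6 that fell. The number lower was 2 with scan as a block or without WT replicate 2, 3 without KO replicate 1 and 1 without KO replicate 3. It was 0 without WT replicate 3, where all 7 markers, Amy2a5 included, had an unadjusted limma p under 0.05. Cela2a and Cela3b were not well above background on any array. The striated muscle markers Acta1, Mb and Myl1 were not well above background on any array. Of the 5 measured muscle markers 1 fell, Tnnt3 at -0.57, against 12.2% of all genes. It was not called with scan as a block or after cyclic loess. The summed level of the 5 was 1.88 to 1.89 in WT and 1.19 to 1.81 in KO, and it weighs Myh6 most. The part of red cells and Kupffer cells in the difference of the subunit genes was not tested.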

How the data were processed

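RNA of 3 WT and 3 Sec15 KO liver samples was measured on 1 one-colour array each. The deposited values are intensity per spot from Agilent Feature Extraction, background-subtracted and detrended but not normalized between arrays, per the file headers. The deposited files also hold other columns, flags of 0 or 1 for background, saturation and outliers, per the file headers. Outlier spots (178 to 236 of 43020 per array) were dropped, none was saturated, and repeat spots were averaged to 39429 probes. The number of arrays limits the precision. The log2 signal, less the 75th percentile of its array, was used for probes well above background on at least 3 of 6 arrays (27024 probes). Transcript accessions were matched to RefSeq symbols (GRCm38.p6): 27234 probes had 1 symbol and 12195 none. The brightest probe stood for a gene, which gave 22810 genes, 15544 with a symbol.

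KO and WT were compared with limma 3.58.1 (lmFit, eBayes) in R 4.3.3 (data.table, version 1.17.8), tested on simulated data, with Benjamini-Hochberg adjustment over all genes. The alternatives covered normalization, filter, variance model, probe choice, scan, replicate number and each array left out. Values on each array are printed for the 3 genes with the smallest p and the gene with the largest p in each class of subunits. Of the assembly factors and regulators, each called gene and the 2 largest uncalled differences are named; the few shown array by array were chosen after their values were seen. All counts cover the 37 genes, of which 1 is not reported here on its own. The members and lists were chosen with earlier results of these data known.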

Additional observations from a re-analysis of the deposited data

How the results depend on the processing

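Over 19 alternatives 27 of the 37 subunit genes kept their direction, 10 reversed in at least 1, and each of the 21 called genes lost its call in at least 1. Genes higher in KO numbered 5 of 37 after quantile normalization, 5 after cyclic loess, 7 after normexp with quantile normalization (where Ndufa3 was the 1 gene lower), 35 with array weights, 1 with scan as a block, 0 on scan 1 alone (limma, 12 at an unadjusted p under 0.05) and 0 to 28 with 1 array left out. Their median difference, 0.43, was 0.15, 0.16 and 0.14 under those 3 normalizations, 0.55 with median centring (which moved the median of all genes to 0.18) and 0.26 with scan as a block or scan 1 alone. Over all genes 3959 were higher and 2788 lower. The number higher was 2472 after cyclic loess, 2613 with no filter, 9335 with array weights, 1158 with the scan block, 0 on scan 1 alone and 341 to 5728 with 1 array left out. The number lower was 7539 with array weights, 1067 with the scan block, 0 on scan 1 alone and 276 to 5069 with 1 array left out. Higher calls were 58.7% of all calls, 69.4% with median centring and 46.4% after cyclic loess. Of the assembly factors 13 were higher and 1 lower with array weights, 0 were higher with the scan block or on scan 1 alone, and 0 to 10 with 1 array left out. Array weights ran from 0.154 for KO replicate 2 to 9.80 for WT replicate 3, so that fit rests mostly on WT replicate 3 and KO replicate 3.

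Samples with the same replicate number did not deviate together in every pair (correlations 0.11, 0.11 and 0.02), so the numbers were not taken to pair samples. With the replicate block 16 subunit genes, 3 assembly factors, and 2921 higher and 2394 lower genes were called (12.8% of all genes higher). With WT replicates 1 and 2 averaged, since their deposited names share a number, 17 subunit genes (45.9%) were called, against 16.3% of all genes and 31.1% of the brightest decile.

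Reversed values follow in the order quantile normalization, cyclic loess, normexp. They were -0.26, -0.26 and -0.34 for Ndufa3, -0.038, -0.024 and -0.11 for Ndufa13, -0.16, -0.12 and -0.18 for Ndufb4, -0.018, -0.027 and -0.079 for Ndufb7, -0.091, -0.063 and -0.17 for Ndufb9, -0.13, -0.13 and -0.034 for Ndufs6, -0.22, -0.20 and -0.14 for Ndufs7, and -0.24, -0.20 and -0.21 for Ndufv3. Ndufb3 was -0.035 after cyclic loess, and Ndufa7 -0.050 and -0.066 under quantile normalization and cyclic loess and -0.018 with scan as a block or scan 1 alone. Ndufa3 was -0.20 with scan as a block or scan 1 alone and ran from -0.053 to 0.13 with 1 array left out, below 0 without WT replicate 1, KO replicate 1 or KO replicate 3. The causes were not tested.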
